A study of Mus musculus with 4 samples.

Results

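The cells described here are the carcinoma cells with the largest share of Hmox1 transcripts in MB49 tumours of male and female mice. Hmox1 encodes heme oxygenase-1, the enzyme that breaks heme down to biliverdin, carbon monoxide and iron. The members were taken from the libraries of cells sorted as CD45-negative. A cell entered with at least 2000 UMIs (unique molecular identifiers, each counting 1 captured transcript), at most 25% of UMIs from mitochondrial genes, at least 3 UMIs of the keratins Krt8 and Krt18 together, and no UMI of Ptprc, which encodes CD45. These gates left 4618 of 6023 barcodes in the male library and 3355 of 5152 in the female library. The members were chosen by Hmox1 UMIs as a share of all UMIs of the cell: the 5% of these 7973 cells with the largest share, both libraries pooled, are the 398 members, out of 22115 barcodes in the series.

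MB49 is a bladder carcinoma of male mouse origin, so the tumour cells in both hosts come from a male. The tumours were dissociated with enzymes at 37°C, sorted by CD45 antibody into live positive and negative fractions, and captured with the BD Rhapsody microwell system. The series holds 4 libraries, 1 for each host sex and sort, and the groups used here are the male and the female CD45-negative library. The labels used here do not name the host strain, age, tumour site and number of mice behind each library. Because each group is 1 library, no p-value is given, host sex and library cannot be told apart, and every interval below covers counting error only. Barcodes are serial numbers within each library, so the number shared between libraries could not be counted.

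As background, Hmox1 is held down by the heme-binding repressor BACH1 and switched on by NRF2, the transcription factor released from KEAP1 under oxidative and electrophilic stress. NRF2 also drives genes for glutathione synthesis, thioredoxin reduction and NADPH supply. ATF3, the other marker named for these cells, is a stress-induced transcription factor reached by the integrated stress response, the MAP kinase pathways and DNA damage. Free heme, cadmium, heat and, in many cells, hypoxia are known inducers of Hmox1. The gene lies at chr8:75093621-75100589 on the plus strand (mouse GRCm38, GENCODE M21), Atf3 at chr1:191170296-191218039 on the minus strand.

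The members were spread unevenly over the libraries. The male library held 45 of them, 0.974% of its gated cells (exact Clopper-Pearson 95% interval 0.712 to 1.30%). The female library held 353, or 10.5% (9.50 to 11.6%). Hmox1 chose the cells, so its level in them is a description. Members carried 2 to 62 Hmox1 UMIs each in the male library, with a median of 11, and 3 to 94 in the female library, with a median of 15. Per 10000 UMIs of the cell, the median was 11.5 in male and 13.3 in female members. The last cell inside the threshold had 8.558 Hmox1 UMIs per 10000 and the first cell outside it 8.549, so no gap separated them. Fewer than 5 Hmox1 UMIs stood behind 8 male and 17 female members.

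The difference in member number came with a difference in Hmox1 over the whole range of cells. Over all gated cells, Hmox1 stood at 37.5 CPM (UMIs of the gene per 1000000 summed UMIs, exact Poisson 95% interval 36.0 to 39.1) in the male library and at 297 CPM (292 to 302) in the female library. The female to male ratio was 7.91 (7.56 to 8.28). At least 1 Hmox1 UMI was found in 19.4% of male and 68.7% of female gated cells. With every cell thinned to 2000 UMIs, the share among cells that were not members was 4.85% for the male library and 25.5% for the female library. Members held 28.0% of the Hmox1 UMIs of the male gated cells and 47.0% of those of the female gated cells. In the plot of the Hmox1 distribution, the female curve lies above the male curve at every level drawn.

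**Figure D1:**
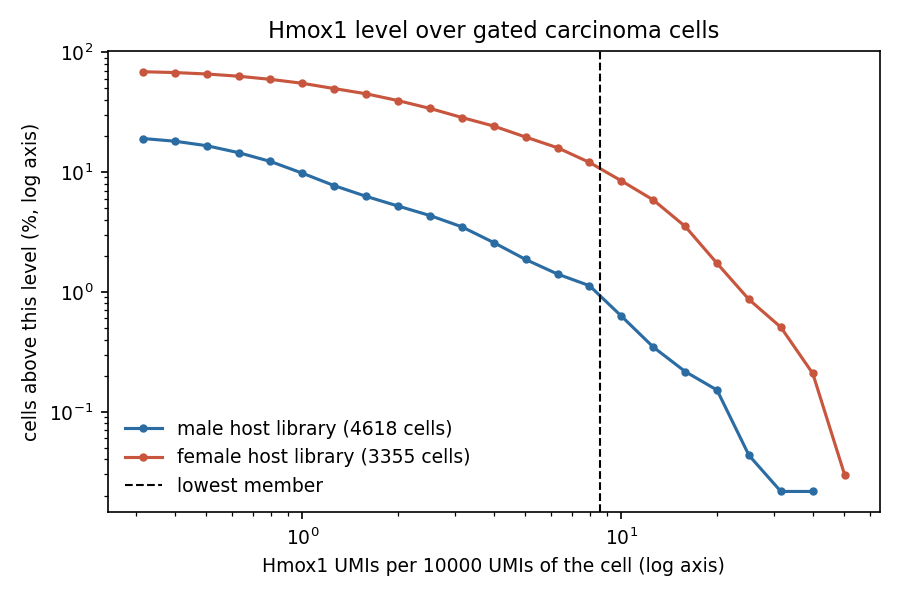
Share of gated carcinoma cells (y axis, percent, log scale) with more than a given number of Hmox1 UMIs per 10000 UMIs of the cell (x axis, log scale), for the male (4618 cells) and the female library (3355 cells). The dashed line marks the lowest member at 8.558, where 0.974% of male and 10.5% of female cells lie at or to the right of it.

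The CD45-positive libraries of the same tumours give 2 reference levels. Cells with at least 3 UMIs of the C1q genes, which mark macrophages, a cell type that clears heme, had Hmox1 at 239 CPM (male) and 459 CPM (female). Male cells with at least 3 UMIs of the T cell receptor chains Cd3d, Cd3e and Cd3g, which should have little Hmox1, had 5.14 CPM. In these, 1.69% of 118 cells (0.206 to 5.99%) had a UMI, at a median depth of 2674 UMIs against 11473 in the male carcinoma cells outside the members. The female library had only 8 such T cells, too few for a reference. The members of both libraries, with 1447 and 1498 CPM, lay above both references. That order was set by the choice of members, since the references were not selected by Hmox1. All gated carcinoma cells, also not selected by Hmox1, had 37.5 CPM (male) and 297 CPM (female).

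The label of these cells as carcinoma cells was checked against markers. Krt8 reached 630 CPM in male and 580 CPM in female members, and Krt18 1542 and 1717 CPM. Both genes were part of the gate, so their presence was fixed in advance and cannot check the label. The median of Krt8 and Krt18 UMIs together, not adjusted for depth, was 16 in male members against 22 in the rest. In the female library it was 19 against 28. Other epithelial markers were mixed. Of 21 listed epithelial and keratin genes, Krt8 and Krt18 included, 7 were measured. Their list summed to 12962 CPM in male members against 7291 in the rest, and to 11646 against 10376 CPM in the female library. A shorter list of 8 carcinoma markers, Krt8 and Krt18 included, did not go the same way in both libraries. It summed to 2948 against 2537 CPM in the male library, but to 2604 against 3117 CPM in the female library. No UMI was found for 9 of the 21 in male and 6 in female members, with Epcam, Krt7 and Upk3a at 0 in both. Of 15 macrophage markers, 9 had no UMI in male and 3 none in female members. C1qa, C1qb and C1qc each stayed at or below 4.63 CPM in both. Over all 15 the summed level was 164 CPM in male members against 158 in the rest, and 231 against 198 in the female library. It came mostly from Cd68, a lysosomal membrane protein, at 102 and 133 CPM, and from Cd14. Of 9 T and NK cell markers, 8 had no UMI in the members of either library, and the erythroid markers had none. Summed endothelial markers were lower in members than in the rest (16.2 against 24.1 CPM male, 13.5 against 20.2 CPM female). Of 11 fibroblast markers, 3 had no UMI in male and 1 none in female members, and their summed level was high in members and rest alike: 3791 against 4464 CPM (male) and 3796 against 4170 CPM (female). Most of it was Col1a1, at 2698 and 2968 CPM in members. Summed neutrophil markers, mostly Mmp9, had 382 against 461 CPM and 317 against 423 CPM, with 6 of 9 at 0 in male and 3 in female members. B and plasma cell markers had 13.9 against 119 CPM and 4.07 against 12.2 CPM. Pericyte and muscle markers had 83.4 against 153 CPM and 121 against 142 CPM. The part of such cells in the ratios below was not tested. Xist, expressed from the inactive X chromosome of female cells, had 0 UMIs in male and 0.508 CPM in female members. Without the cells that held any of 8 immune or endothelial markers, 40 male and 318 female members were left, at the same call for all 24 genes named below as most changed.

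Members were somewhat shallower than other carcinoma cells. The median was 9552 UMIs in male members against 11473 in the rest, and 10640 against 11815 in the female library. Mitochondrial genes took a median of 4.01% of UMIs in male members against 4.65% in the rest, and 4.0% against 3.91% in the female library. Atf3, the second marker, stood at 111 CPM in male members against 40.6 in the rest, a ratio of 2.74 (2.01 to 3.64). Female members had 224 CPM of it against 158, a ratio of 1.42 (1.32 to 1.52), under the 1.5-fold used here to call a gene. An Atf3 UMI was found in 14 of 45 male and 219 of 353 female members. The cells are therefore called Hmox1-high below, since Atf3 passed in the male library alone. This depended on the choice of cells: the female log2 ratio of Atf3, 0.51 here and 0.585 at 1.5-fold, was 0.80 with at least 20 keratin UMIs, 0.59 with the top 2.5% and 0.65 with the top 10% of cells.

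UMIs were summed over members and over the remaining gated cells of the same library, and a gene was called when the ratio passed 1.5-fold the same way in both libraries. Of 3835 genes with enough UMIs, 58 were higher in members (1.51%), Hmox1 among them, and 145 were lower (3.78%). With the ratios centred on the median gene, 88 genes were called higher, and the share of calls that were higher went from 28.6% to 42.3%. Taken singly, the male library called 336 genes higher (8.76%) and 574 lower (15.0%), and the female library 90 higher (2.35%) and 197 lower (5.14%). The direction was the same in both libraries for 2674 of the 3835 genes. The male values rest on 431808 UMIs from 45 cells and are the less precise. The scatter of the ratios shows cell cycle genes at the lower left and NRF2 and hypoxia genes at the upper right.

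**Figure D2:**
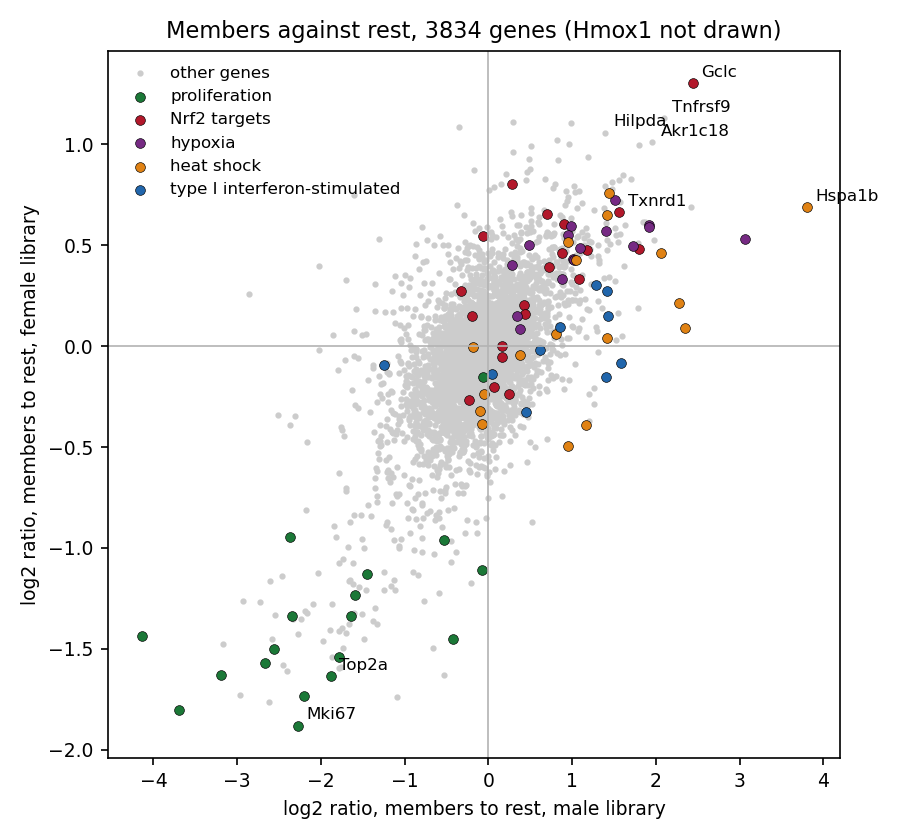
Each point is a gene. The x axis is the log2 ratio of members to the rest in the male library and the y axis the same in the female library, with colours for 5 gene lists. Hmox1 itself is not drawn. Gclc (2.44 male, 1.30 female) lies farthest up, and Mki67 (-2.27, -1.88) lowest.

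The genes with the largest change after Hmox1 included genes of redox defence and lipid storage. Gclc, the catalytic subunit of the enzyme that starts glutathione synthesis, stood first, at 132 CPM in male members against 24.3 in the rest (ratio 5.44, 4.10 to 7.09). For female members these values were 113 against 45.6 CPM (2.47, 2.22 to 2.74). Hilpda, a hypoxia-induced lipid droplet protein that inhibits triglyceride lipase, stood at 266 against 102 CPM (male) and 309 against 148 CPM (female). The other lipid droplet gene called was Plin2, at log2 ratios of 0.93 and 0.72. These genes were not confined to a few female cells: Hilpda had a UMI in 254 of 353 female members and Gclc in 170.

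Other named genes were receptors, cytokines and growth brakes. Tnfrsf9, the co-stimulatory receptor 4-1BB, stood at 151 against 35.1 CPM in the male and 71.2 against 32.5 CPM in the female library. Clcf1, a cytokine of the interleukin-6 family, had ratios of 1.99 (1.42 to 2.71) and 2.15 (1.93 to 2.39). Btg2, an antiproliferative gene induced by p53 and by growth signals, stood at 257 against 132 CPM and at 503 against 251 CPM. Plk2, a p53-induced kinase, reached ratios of 1.79 and 1.90. Akr1c18, an aldo-keto reductase that inactivates progesterone, had 153 against 39.3 CPM and 309 against 153 CPM. Tmem45a, Medag and Atp7a, the last a copper exporter, had ratios between 1.77 and 3.49 in both libraries. Ftl1-ps1 had 389 against 131 CPM and 449 against 254 CPM. It is a near-identical copy of the ferritin light chain gene Ftl1, which itself had under 12 CPM in every group, so its reads cannot be assigned with certainty.

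In the male library several of these levels leaned on few cells. A single cell gave 37.4% of the male Hilpda UMIs and 26.3% of the male Gclc UMIs, whereas in the female library the largest single share was 5.64% for Gclc and 2.30% for Hilpda. The 5 male members with the most gave 70.2% of the Gclc UMIs. With the top 2.5% of cells the male log2 ratios of Hilpda and Clcf1 were 0.48 and 0.12, under the threshold. With at least 20 keratin UMIs the female ones of Akr1c18 and Medag were 0.57 and 0.48.

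NRF2 target genes were higher as a group, but unevenly. Of 30 listed genes, 20 were measured, and 4 of them were called higher in both libraries and none lower, beside 1.51% over all genes. These were Gclc, Gclm, Txnrd1 and Sqstm1. The list's median log2 ratio was 0.43 (male) and 0.36 (female), beside -0.09 and -0.05 over all genes. Gclm, the regulatory partner of Gclc, had 417 against 222 CPM (male) and 354 against 233 CPM (female). Txnrd1, cytosolic thioredoxin reductase, had 354 against 120 CPM and 273 against 172 CPM. Sqstm1, the p62 autophagy receptor that sequesters KEAP1, had 1962 against 1211 CPM and 3017 against 1917 CPM. Srxn1, which repairs oxidised peroxiredoxins, passed in the female library alone, with ratios of 1.22 and 1.74. Prdx1, a peroxiredoxin, and Esd passed in the male library alone. The pentose phosphate genes Taldo1, Tkt and G6pdx stayed between log2 ratios of -0.27 and 0.16.

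Members of the same list with few UMIs fell below the abundance filter and are named after their values were seen. Slc7a11, the cystine importer, had 50.9 against 13.8 CPM in the male and 44.7 against 17.6 CPM in the female library. Nqo1, a classical NRF2 target, had 14 UMIs in 4 of 45 male members and 26 UMIs in 10 of 353 female members. At 1.35 CPM (male) and 1.04 CPM (female) in the rest it was barely present in these tumour cells. Nfe2l2, which encodes NRF2, had log2 ratios of -0.58 and 0.55, below the 1.5-fold in both and of opposite sign. Its repressor Keap1 and the Hmox1 repressor Bach1 (log2 ratios -0.22 and 0.14) passed in neither library.

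Among the genes of heme and iron handling, none of 8 measured passed in both libraries. Fth1, the ferritin heavy chain that stores iron, had 8191 against 4528 CPM in the male (ratio 1.81, 1.75 to 1.87) and 4898 against 3522 CPM in the female library (1.39, 1.37 to 1.41). Slc48a1, a transporter that carries heme out of the lysosome into the cytosol, had ratios of 2.48 and 1.42. Tfrc, the transferrin receptor for iron uptake, was lower in male members, with 62.5 against 127 CPM, and had 121 against 154 CPM in female members. All 3 had the same direction in both libraries but passed 1.5-fold in the male library alone. Blvrb, which reduces biliverdin, had log2 ratios of 0.27 and 0.18.

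Of 16 measured hypoxia genes, 12 were called higher in the male library, beside 8.76% over all genes, and 4 in the female library, beside 2.35%. All 16 had a ratio above 1 in both, and the median log2 ratio was 1.01 and 0.50. The 4 called in both, beside 1.51% over all genes, were Bnip3, Ero1l, Slc2a1 and Vegfa. Among the cells low in the cell cycle, described further on, 18 hypoxia genes were measured and none was called in both libraries, with medians of 0.75 (male) and 0.16 (female). Ero1l, an oxidase of the endoplasmic reticulum, had 2974 against 786 CPM in the male and 2461 against 1621 CPM in the female library. Slc2a1, the glucose transporter GLUT1, had 903 against 239 CPM and 608 against 403 CPM. Vegfa, the angiogenic growth factor, had 866 against 437 CPM and 1126 against 746 CPM. Adm, the vasodilator adrenomedullin, had 651 against 78.0 CPM in the male library and 272 against 188 CPM in the female library. The 12 measured glycolysis genes were also all higher in both libraries (medians 0.61 and 0.31), but 8 passed for the male members (8.76% over all genes) and none for the female members (2.35%).

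Of 7 measured p53 targets, 4 were called higher in each library taken singly, beside 8.76% (male) and 2.35% (female) over all genes. The 3 called in both, beside 1.51% over all genes, were Cdkn1a, Plk2 and Btg2. The list's medians were 0.67 (male) and 0.59 (female). Cdkn1a, the cyclin-dependent kinase inhibitor p21, had 602 against 295 CPM (male) and 871 against 514 CPM (female). Mdm2, the ubiquitin ligase of p53, had ratios of 1.37 (male) and 1.51 (female). Of 25 immediate early genes, 11 were called higher in the male library, beside 8.76% over all genes, and 2 in the female library, beside 2.35%. Those 2, called in both, were Btg2 and Maff, a small MAF protein that partners NRF2 family factors. The medians of the list were 0.46 and 0.40. Fos had 2969 against 1386 CPM in the male and 2351 against 2008 CPM in the female library. Among 20 genes of the integrated stress response, 9 were called higher in the male library, beside 8.76% over all genes, with a list median of 0.53. In the female library 1 was, beside 2.35%, with a median of 0.00. That 1 was Ppp1r15a (GADD34, which ends the arrest of translation), called in both, beside 1.51% over all genes. Called lower in female members were 2 genes, beside 5.14% over all genes. They were Shmt2, of serine and folate metabolism, with 54.9 against 104 CPM, and Psat1, of serine synthesis, with 113 against 189 CPM. The 16 measured endoplasmic reticulum chaperones had medians of -0.25 and -0.16. Of these, 1 (Creld2) was called lower in both, beside 3.78% over all genes.

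Of 13 measured genes of autophagy and the lysosome, 11 were above 1 in both libraries, and Sqstm1 and the protease Ctsl passed in both, beside 1.51% over all genes. The medians of the list were 0.38 and 0.37. Among the cells low in the cell cycle, described further on, none of them was called in both, with medians of 0.06 and 0.12. Mt1, a metal-binding metallothionein, had 5095 against 2545 CPM (male) and 4088 against 2751 CPM (female), ratios of 2.0 and 1.49. Of 19 measured proteasome subunits, 5 were called lower in the male library, beside 15.0% over all genes, and none in the female library, with medians of -0.32 and -0.35. A ratio below 1 in both libraries was found for 18 of the 19, and for 1665 of the 3835 genes, against 1009 above 1 in both. The nuclear-encoded respiratory chain genes had medians of -0.37 and -0.21 and the cholesterol synthesis genes -0.44 and -0.18, again with none called in both.

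**Figure D3:**
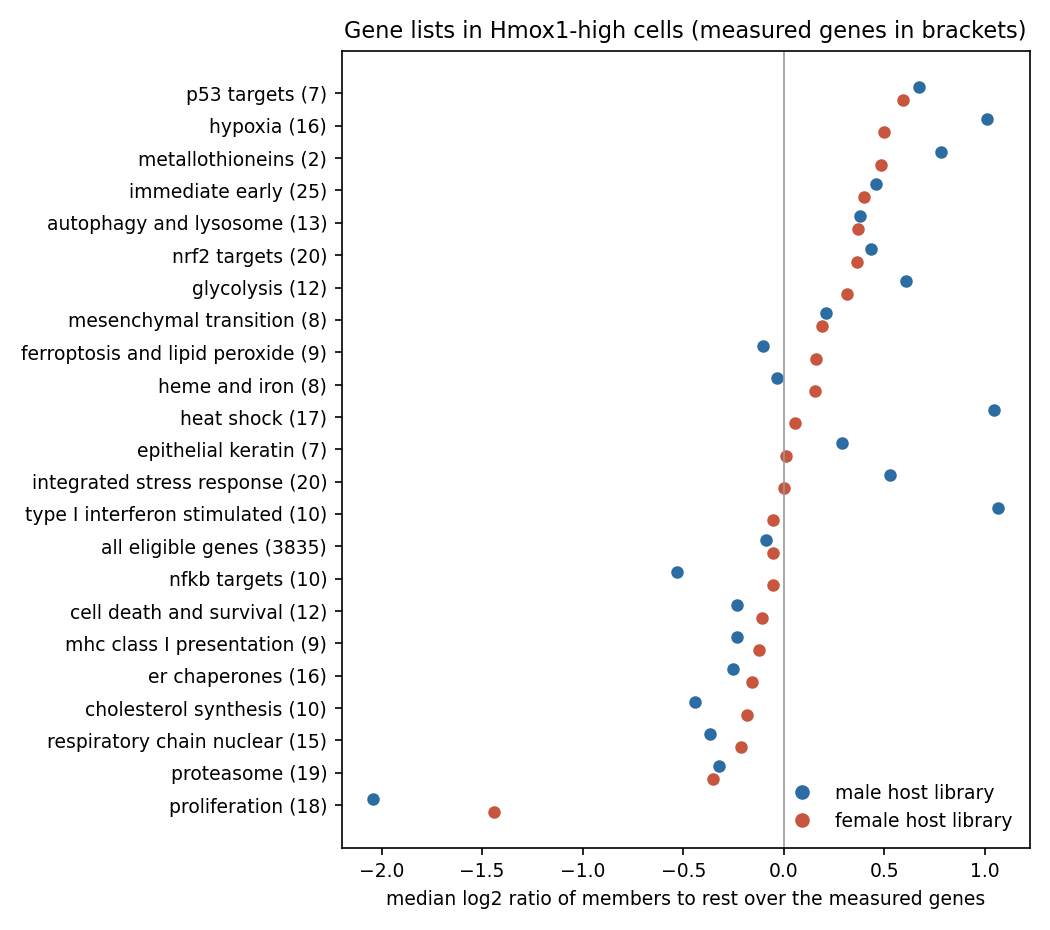
Median log2 ratio of members to the rest over the measured genes of each list (x axis), in the male and the female library. The bracketed number is the count of measured genes. Proliferation lies lowest (-2.04 male, -1.44 female). Heat shock (1.04, 0.06) and type I interferon genes (1.07, -0.05) are the lists where the 2 libraries lie farthest apart.

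Cell cycle genes were the largest change in the other direction. Of 18 measured proliferation genes, 14 were called lower in both libraries, beside 3.78% over all genes, and all 18 were below 1 in both. The 12 genes with the strongest decrease all act in the cell cycle or in mitosis. Mki67, the Ki-67 antigen, had 69.5 CPM in male members against 335 in the rest, 4.82 times lower (3.37 to 7.14), and 77.5 against 285 CPM in the female library, 3.68 times lower (3.29 to 4.14). Top2a, the topoisomerase that untangles replicated chromosomes, had 294 against 1083 CPM and 310 against 964 CPM. The mitotic kinase Plk1 left 2 UMIs in all male members, 4.63 against 60.1 CPM, and had 15.2 against 53.2 CPM in female members. Ccna2, cyclin A2, was 9.14 times lower (5.10 to 18.3) in the male and 3.09 times lower (2.72 to 3.53) in the female library. Hmmr, Pclaf, Ckap2l, Pbk, Dlgap5, Nek2, Ect2 and Cenpf were between 2.97 and 7.83 times lower. Pcna, which is also used in DNA repair, stayed at log2 ratios of -0.06 and -0.15.

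The promoters of 2 of these genes are shown because they carry the cell cycle gene homology region TTTGAA, an element bound by the complexes that silence late cell cycle genes in resting cells. Capitals mark the element on either strand. They are the 250 bases before the start of transcription in RefSeq (GRCm38.p6), both on the minus strand, at chr7:135716380-135716629 for Mki67 and chr11:99024190-99024439 for Top2a.
Mki67: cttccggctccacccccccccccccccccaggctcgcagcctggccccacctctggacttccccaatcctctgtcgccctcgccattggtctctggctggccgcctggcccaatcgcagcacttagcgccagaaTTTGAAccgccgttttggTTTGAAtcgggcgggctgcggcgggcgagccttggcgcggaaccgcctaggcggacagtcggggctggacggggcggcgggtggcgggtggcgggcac
Top2a: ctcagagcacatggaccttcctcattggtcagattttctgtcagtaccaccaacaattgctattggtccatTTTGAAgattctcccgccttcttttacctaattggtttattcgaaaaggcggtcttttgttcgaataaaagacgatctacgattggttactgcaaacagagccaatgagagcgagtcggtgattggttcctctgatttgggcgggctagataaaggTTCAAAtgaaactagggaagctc
Of the 12 most decreased genes, 9 had an entry in the promoter table. TTTGAA was found, on either strand, in 4 of these 9, and in 18.3% of all 27025 genes of the table. The CCAAT box, searched as CCAAT on both strands, was found in all 9, against 37.5% of all genes and 41.9% of the 2937 measured genes with an entry. Neither motif contains the other. A match describes the letters and shows no binding. Among 16 NRF2 targets with an entry, the antioxidant response element core TGACNNNGC was found in 5, against 11.5% of all genes and 15.5% of the measured genes with an entry. It was also found in 3 of 16 proliferation genes with an entry. Enhancers farther out were not searched.

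Since cell cycle genes were lower in members, the same comparison was made among cells low in the cell cycle. Of the male members 82.2% (67.9 to 92.0%) fell in the lower 50% of their library's cells by the share of 8 cell cycle genes (Mki67, Top2a, Birc5, Cdk1, Pclaf, Ccnb1, Rrm2 and Ccna2), against 49.7% of the rest. The female shares were 77.9% (73.2 to 82.1%) and 46.8%. Among the low-cycle cells, 37 male and 275 female members remained, and of 3676 genes 12 were higher (0.326%) and 13 lower (0.354%) in both libraries. With fewer cells, and both sides low in the cell cycle, this comparison called fewer genes and none of the 12 cell cycle genes named above, some of which had ratios above 1 there. The split itself used Mki67, Top2a, Pclaf and Ccna2. Of 21 listed proliferation genes only 4 passed the abundance filter there, so the missing calls cannot show that the difference was lost.

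The genes still called higher included, beside Hmox1, Hilpda, Gclc, Txnrd1, Slpi, Slc20a1, Clcf1, Dnajb1, Hes1, Cdkn1a and Gadd45g. Among low-cycle cells Hilpda had 288 against 101 CPM (male) and 326 against 172 CPM (female), Gclc 90.6 against 30.4 and 106 against 59.9 CPM, and Txnrd1 360 against 108 and 277 against 167 CPM. The female ratio of Gclc was 1.76 there and 2.47 in all cells. Beside 0.326% over all genes there, 2 of 19 NRF2 targets were called higher in both libraries, with medians of 0.43 (male) and 0.27 (female). Of 7 p53 targets 1 was called (medians 0.32 and 0.49), and of 17 heat shock genes 1 (0.94 and 0.14). None of 25 immediate early genes was (0.29 and 0.28). The genes called lower included the collagens Col1a2 and Col3a1, the matrix protease Mmp3, the growth factor Ptn and the alarmin Il33. Col1a2 had 8.23 against 67.0 CPM in the male and 16.0 against 404 CPM in the female library. Of the 11 fibroblast markers, 4 were measured in all gated cells, with medians of 0.00 and -0.29. None was called lower for male and 1 for female members, beside 15.0% and 5.14% over all genes. Among them Col1a1 had 2968 against 2907 CPM in the female library. Dpt and Postn, named after their values were seen, had 0.254 against 13.3 and 3.81 against 36.3 CPM there. The part of fibroblasts among the other gated cells in the collagen result was not tested.

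Heat shock genes differed between the libraries. In the male library 12 of 17 measured heat shock genes were called higher, beside 8.76% over all genes, and the median log2 ratio was 1.04. In the female library 3 were called higher, beside 2.35% over all genes, and the median was 0.06. These 3, Hspa1b, Dnajb1 and Cryab, passed in both. Hspa1b, the inducible HSP70, had 1119 CPM in male members against 80.1 in the rest and 181 against 112 CPM in the female library. Hspa1a, its near-identical neighbour, had almost no UMIs, so the 2 copies cannot be told apart by these counts. The small chaperone Hspb1 had 2890 against 568 CPM in the male and 658 against 618 CPM in the female library. Bag3, a co-chaperone, had 692 against 166 CPM and 264 against 191 CPM.

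The male Hspa1b level came from few cells. Hspa1b had a UMI in 18 of 45 male members, and the 5 highest of them held 84.1% of its UMIs. Without those 5 members the male median of the list was 0.38. The female members were less extreme, with a UMI in 147 of 353 and 37.3% of the UMIs in the 5 highest.

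The promoter of Hspa1b is shown because it carries the heat shock element core GAANNTTC, in capitals, which reads the same on both strands. It covers the 250 bases before the start of transcription on the minus strand, at chr17:34959239-34959488 (RefSeq, GRCm38.p6). Atf3 is shown beside it for the cyclic AMP response element-like site TTACGTCA near its start, on the minus strand at chr1:191183334-191183583.
Hspa1b: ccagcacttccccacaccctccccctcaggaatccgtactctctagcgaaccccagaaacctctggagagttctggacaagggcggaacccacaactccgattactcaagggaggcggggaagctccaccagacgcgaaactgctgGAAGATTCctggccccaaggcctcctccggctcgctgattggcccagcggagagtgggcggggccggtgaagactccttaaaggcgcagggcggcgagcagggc
Atf3: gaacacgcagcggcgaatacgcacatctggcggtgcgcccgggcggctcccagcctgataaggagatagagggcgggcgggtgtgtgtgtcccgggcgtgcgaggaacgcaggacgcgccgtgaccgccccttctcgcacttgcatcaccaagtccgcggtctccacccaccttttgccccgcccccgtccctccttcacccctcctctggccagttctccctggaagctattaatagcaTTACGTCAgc
GAANNTTC was found in 6 of 13 heat shock genes with an entry, in 7.73% of all genes of the table and in 5.96% of the measured genes. It was also found in 5 of 16 proliferation genes with an entry. TTACGTCA, searched on both strands, was found in 0.525% of all genes.

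Members also differed among themselves. With each cell thinned to 2000 UMIs, a member was counted as high for a list when its summed UMIs passed the 95th percentile of the rest of its library. Hmox1 is in none of the lists. For NRF2 targets, 15 of 45 male members were high, 33.3% (20 to 49.0%) against 4.61% of the rest, and 57 of 353 female members, 16.1% (12.5 to 20.4%) against 4.70%. Most members of both libraries were thus not high for NRF2 targets. For hypoxia the shares were 26.7% (14.6 to 41.9%) in male and 8.50% (5.81 to 11.9%) in female members, against 4.96% and 4.56% of the rest. For heat shock they were 31.1% (18.2 to 46.6%) and 5.95% (3.72 to 8.95%), against 4.57% and 4.90%. For p53 targets the female share was 11% (7.98 to 14.8%) and the male share 4.44% (0.543 to 15.1%), against 4.96% and 4.31% of the rest.

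**Figure D4:**
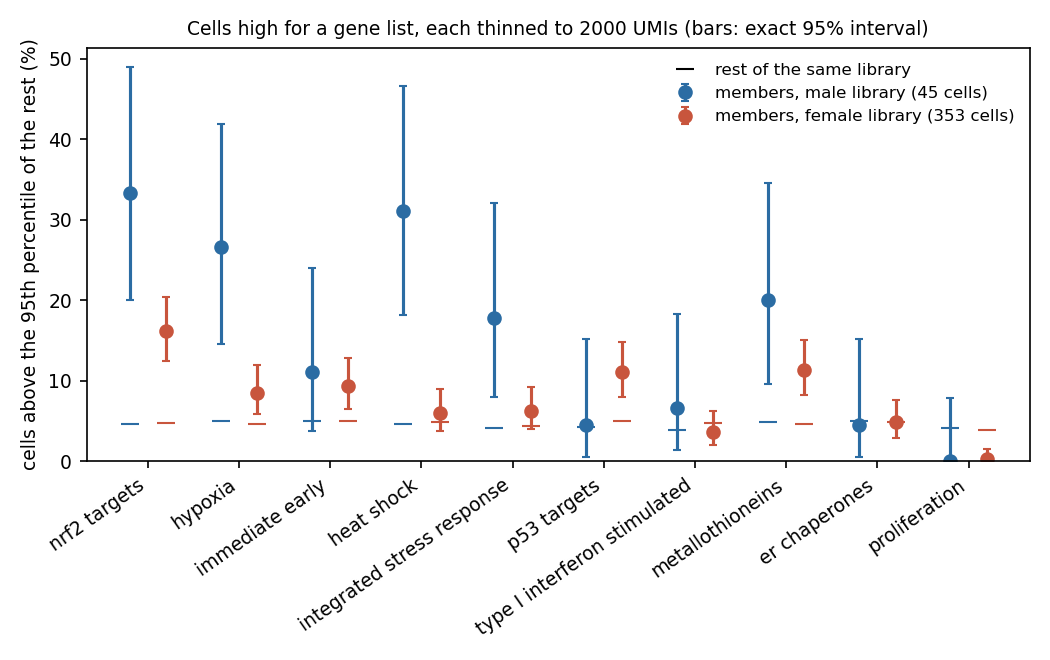
Share of members (points, with exact 95% intervals) whose thinned UMIs for a gene list passed the 95th percentile of the rest of the same library (y axis, percent), by list and library. Horizontal ticks give the share in the rest. NRF2 targets are highest, at 33.3% (male) and 16.1% (female), and proliferation lowest, at 0 of 45 and 0.283%.

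Cells were also counted by how many lists they were high for. Over 6 lists (NRF2 targets, integrated stress response, heat shock, immediate early, hypoxia and type I interferon), 7 of 45 male members (15.6%) were high for none, against 79.0% of the rest. Another 12 (26.7%) were high for 2 lists, against 4.24% of the rest, and 3 (6.67%) for 3 or more, against 0.897%. Of 353 female members, 215 (60.9%) were high for none, against 76.4% of the rest. Another 26 (7.37%) were high for 2, against 3.5% of the rest, and 6 (1.70%) for 3 or more, against 0.566%. No male member was high for both NRF2 targets and hypoxia (0 of 45, exact upper limit 7.87%), against 0.241% of the rest. At so low a share in the rest, 0 of 45 cells cannot show a lack of overlap. Of female members 5 of 353 (1.42%) were high for both, against 0.200% of the rest. Heat shock and hypoxia met in 6 of 45 male members (13.3%), the most frequent pair there, against 1.01% of the rest. For proliferation, 0 of 45 male and 1 of 353 female members were high, against 4.11% and 3.90% of the rest.

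The levels of the leading genes were then followed over 7 strata of the pooled Hmox1 share. In the female library, where each stratum held at least 71 cells, Gclc went from 33.3 CPM in the 0 to 50 stratum to 75.4 CPM in the 90 to 95 stratum just below the threshold, 105 CPM just above it and 133 CPM in the top 1%. Txnrd1 went from 155 to 199, 243 and 322 CPM. Cdkn1a went from 435 to 661, 839 and 954 CPM, and Mki67 from 326 down to 181, 111 and 20.3 CPM. These genes moved with Hmox1 in steps, and the cells just outside the threshold lay between the rest and the members. Hilpda levelled off above it, at 308, 315 and 298 CPM in the 3 strata of members. Atf3 did not follow to the top: it had 238 CPM on both sides of the threshold and 167 CPM in the top 1%. Slc7a11 had 15.7 CPM in the 0 to 50 stratum, 20.7 and 25.4 CPM on the sides of the threshold, 40.5 CPM in the 97 to 99 stratum and 96.2 CPM (75.1 to 121) in the top 1%.

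The male strata above the threshold held 27, 10 and 8 cells. Gclc had 98.5, 116 and 252 CPM in them against 31.4 CPM just below. Slc7a11 had 27.6, 21.1 and 156 CPM, the last with an interval of 83.1 to 267, and it already had 38.8 and 43.2 CPM in the 75 to 90 and 90 to 95 strata. Mki67 was already down to 88.4 CPM in the 90 to 95 stratum, from 340 in the 0 to 50 stratum.

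**Figure D5:**
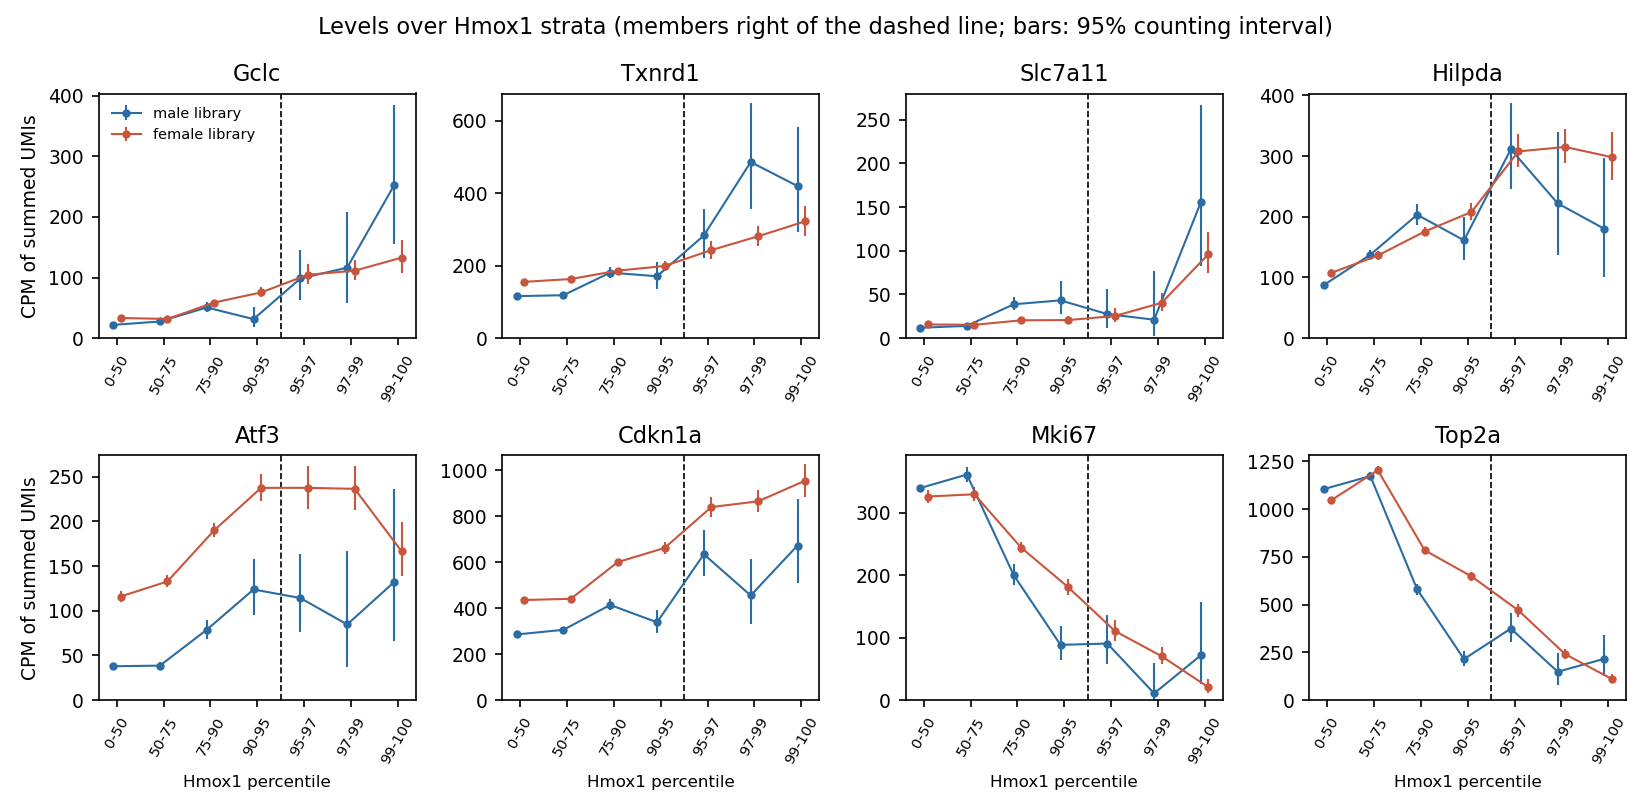
Level of 8 genes (y axes, CPM of summed UMIs, with exact Poisson 95% intervals) over 7 strata of the pooled Hmox1 percentile (x axis), in the male and the female library. Strata right of the dashed line hold the members. In the female library Gclc goes up from 33.3 to 133 CPM and Mki67 down from 326 to 20.3 CPM.

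Male and female members were compared with each other and beside the same ratio in the rest of the cells. Of 3835 genes, 260 were at least 1.5-fold higher in male members (6.78%) and 459 lower (12%). In the rest the counts were 82 higher (2.14%) and 179 lower (4.67%). The smaller number of male member UMIs widens these ratios, so the larger counts among members are not by themselves a larger difference. Hmox1 itself stood at 1447 CPM in male and 1498 CPM in female members.

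The 6 genes with the largest male to female ratio among members were Hspa1b, Hspb1, Mgp, Wfdc2, Tinagl1 and Il33. Hspa1b was 6.17 times higher in male members (5.49 to 6.94) but at a ratio of 0.712 in the rest. Hspb1 was 4.39 times higher (4.10 to 4.70) against 0.920 in the rest. Mgp, an inhibitor of calcification, Wfdc2 and Il33 differed in the rest as well, with ratios of 4.56, 2.43 and 3.78, so these differed between the libraries outside the members too. At the other end stood Pdgfb, the platelet-derived growth factor B chain, with 25.5 CPM in male and 296 CPM in female members, 11.6 times higher in the female ones (6.47 to 23.3) and 2.27 times in the rest. The orphan nuclear receptors Nr4a1 and Nr4a2, both immediate early genes, were 7.80 (5.56 to 11.3) and 10.3 (4.99 to 25.8) times higher in female members, against 1.45 and 1.20 times in the rest. Ccnb1, Zc3h12a and Iigp1 were 6.0 (2.02 to 29.4), 5.39 (3.19 to 9.92) and 5.32 (3.46 to 8.64) times higher in female members. In the rest these female to male ratios were 0.919, 1.32 and 1.48. The male member values rest on 3, 14 and 21 UMIs, with 52.4% of those of Iigp1 in 1 cell.

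The type I interferon genes followed the same split. In the male library 7 of 10 measured genes were called higher and 1 lower, beside 8.76% and 15.0% over all genes, with a median log2 ratio of 1.07. In the female library none passed and the median was -0.05. The summed level of the list was 4277 against 3635 CPM in the male and 3205 against 3432 CPM in the female library. Counted by thinned cell as above, 3 of 45 male members were high for it, 6.67% (1.40 to 18.3%) against 3.94% of the rest. Of female members 13 of 353 were, 3.68% (1.98 to 6.22%) against 4.73%. Most male members were thus not high for this list. Ifit3, an antiviral effector, had 130 against 48.8 CPM in the male, from 12 of 45 members, and 83.6 against 92.9 CPM in the female library. Usp18, which removes ISG15 from proteins, had 78.7 against 26.3 CPM and 47.5 against 50.3 CPM. The difference between the libraries was not tested, as each is a single library.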

How the data were processed

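Transcript UMI counts per gene and cell of the CD45-negative libraries were used as the authors deposited them (unit: counts), with the CD45-positive libraries as a reference for Hmox1. Per the submitters' processing notes, CASAVA 1.8, UMI-tools and Seurat were used with the mm10 build. Aligner and strand setting were not given in the sources used here. Members, gene lists and tests were chosen with earlier results of these data known.

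From the counts, cells were gated and ranked, UMIs were summed over members and the rest of each library, and CPM, ratios with exact conditional binomial 95% intervals, Clopper-Pearson and exact Poisson intervals were computed (Python 3.11.15, scipy 1.17.1, numpy 2.4.6). Genes needed at least 100 UMIs in the gated cells of each library and 50 CPM in members or rest of each. The gates kept a total of 59151025 UMIs in the male rest and 38349412 in the female rest, against 431808 and 3935199 in members. Named genes were the 12 largest and 12 smallest ratios, by the value nearer to 1, and the 6 largest and smallest male to female ratios, without ribosomal, mitochondrial and unnamed genes, plus leading members of each list. Some items that these rules pick are not reported here. No doublet caller was run, and leaving out the 5% deepest cells was an alternative. The scripts were tested on simulated data.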

Additional observations from a re-analysis of the deposited data

Results flagged for a closer look

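Bcl2l11, which encodes the pro-apoptotic protein BIM, went in opposite directions in the libraries. Its log2 ratio of members to the rest was -0.79 in the male library, from 60.2 against 104 CPM, and 0.59 in the female library, from 132 against 87.7 CPM. The male value rests on 26 UMIs. The difference between the libraries was not tested.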

How the results depend on the processing

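The threshold sets the number of members by construction: the top 2.5% gave 0.346% of male and 5.45% of female cells, the top 10% gave 2.12% and 20.8%, and 5% of each library separately gave 4.98% in both. The 58 genes higher in both libraries, of 3835 tested, became 104 with the top 2.5% and 38 with at least 20 keratin UMIs. They became 36 with cells ranked after thinning, 32 with the rest reweighted by depth and 38 with means of per-cell CPM. Ratios centred on the median gene gave 88. Low-cycle cells gave 12 of 3676 genes, and testing genes from 20 UMIs gave 736 of 14143. The 145 lower genes became 95 after thinning, 13 of 3676 among low-cycle cells and 610 of 14143 with the 20-UMI minimum. Genes higher in male than female members (260) became 419 with the top 2.5%, 145 with the top 10% and 4705 of 14143 with the 20-UMI minimum. Genes lower (459) became 773, 299 and 2275 in the same order, and 204 with 5% of each library. The 20-UMI minimum, set without a CPM minimum, tests more genes, and the low-cycle split fewer cells. In these ratios a gene with 0 UMIs in a group was set to 3 UMIs, a large value beside the small male member sum. With the 20-UMI minimum 54.7% of the calls made in both libraries were higher, against 28.6% in the main comparison. The part of the 3-UMI floor in these counts was not tested, nor was the cause of the other changes. The low-cycle split also turned directions, since it selects on the cell cycle: the male proliferation median became 0.66. The female median became -0.28. Only 4 proliferation genes were measured there, against 18 in the main comparison, so the medians cover different genes. The male log2 ratio became 0.39 for Hmmr, 0.073 for Pclaf, 0.62 for Top2a, 0.47 for Pbk, 1.04 for Dlgap5 and 0.85 for Nek2. The female one became 0.11 for Mki67, 0.30 for Plk1, 0.013 for Hmmr, 0.53 for Ckap2l and 0.32 for Pbk. Before the split male members held 127 UMIs of Top2a and 35 of Pclaf, but 11 of Hmmr, 9 of Dlgap5 and 7 each of Pbk and Nek2. Of the 12 genes named as most increased, 8 were called with at least 20 keratin UMIs (the female log2 ratio fell to 0.57 for Akr1c18 and 0.48 for Medag), 10 with the top 2.5% (male Hilpda 0.48, Clcf1 0.12), 11 with means of per-cell CPM (male Btg2 0.53) and 4 among low-cycle cells. After thinning the male value of Plk1 was -0.55, under the threshold. The 3 alternatives added after seeing the data were the low-cycle split, leaving out cells with immune or endothelial markers, and leaving out the 5 members with most Hspa1b. A planned exclusion of every cell with any marker of another type gave no value, as it left 1 male and 0 female members. No paired analysis was possible because each group is 1 library. Depth limits the male member sums, since 45 cells stand behind them.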
